A study of Mus musculus with 23 samples.

Results

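Cytotoxic effector and NK genes were selected by symbol, 10 of the 47643 genes in the deposited table, and each symbol matched 1 row. They are the granzymes Gzma and Gzmb, the pore-forming protein Prf1, the granule membrane protein Nkg7, the cytokine Ifng, the death ligand Fasl, the NK cell receptors Klrk1, Klrd1 and Ncr1, and the chemokine Ccl27a. Their RNA was followed in 23 libraries of B16F10, a melanoma cell line of the C57BL/6 mouse. Each of 3 sample types (bulk tumors, cultured cells and sorted tumor cells) had 2 control (Nr2f6 WT), 2 sg492 and 2 sg495 libraries, the latter groups edited with a Cy3-labeled sgRNA against Nr2f6 and Cas9 protein and labelled NR2F6 KO. The edited cells were sorted for Cy3, and whether clones were then derived from them was not stated. Tumors grew under the skin of male C57BL/6 mice of young adult age, whose own Nr2f6 was not described as altered for these libraries. Sorted tumor cells were what remained after collagenase D digestion and magnetic depletion of stromal cells. The last 5 libraries were labelled WT with IgG control (2) or anti-PD1 (3), with no sample type given, so they were compared only with each other. Values are TPM, which scale a gene's reads to its length and to the library's total, and whether a library came from a separate animal or culture was not stated.

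Cytotoxic lymphocytes, that is CD8 T cells and natural killer (NK) cells, kill by releasing granules toward a target cell. Perforin opens the target membrane and granzymes enter and cut proteins that start cell death, while Fas ligand triggers the death receptor Fas and IFN-γ acts on the target through its own receptor. NK receptors take part in deciding when NK cells kill. NKG2D (Klrk1) reads stress ligands on the target, and CD94 (Klrd1) pairs with NKG2 proteins to read the non-classical MHC molecule Qa-1. NKp46 (Ncr1) marks NK cells and other innate lymphoid cells. CCL27 stands apart in function, as a chemokine best known from keratinocytes that draws CCR10-bearing T cells into skin.

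The guide target was examined first. In bulk tumors Nr2f6 was at 25.8 and 25.2 TPM in control, 22.3 and 23.3 in sg492 and 17.2 and 15.8 in sg495 tumors. In sorted tumor cells it was at 20.3 and 17.7 TPM in control, 10.6 and 12.2 in sg495, and 19.8 and 25.7 in the libraries labelled sg492. Nr2f6 RNA was thus lower with sg495 in both of these sample types, and the sorted sg492 libraries did not lie below their controls. RNA of an edited gene can remain, so that its level checks the labels only in part.

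In GRCm38, Klrd1 (chr6:129591782-129598775, plus strand) and Klrk1 (chr6:129610323-129623864, minus strand) are neighbors in the NK gene complex. Ncr1 (chr7:4337724-4345164) and Nkg7 (chr7:43437073-43438249) are on the plus strand of chromosome 7, and Prf1 (chr10:61297833-61304680) and Ifng (chr10:118441046-118445892) on that of chromosome 10. Gzma (chr13:113093825-113100981), Gzmb (chr14:56258838-56262260), Fasl (chr1:161780689-161788495) and Ccl27a (chr4:41769467-41774247) are on the minus strand. The end of Ccl27a overlaps that of Il11ra1 (chr4:41699989-41769474, plus strand) by a few bases, and Ccl27b, a near copy of Ccl27a, was listed at 0 in every library, so that the split of reads between the copies is uncertain.

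In bulk tumors all 10 genes were detected in all 6 libraries. Gzmb had the highest TPM of the set in 5 of the 6 and a mean of 11.6 TPM, followed by Ccl27a (8.28), Nkg7 (6.94), Klrk1 (6.45), Gzma (4.72), Klrd1 (4.30) and Prf1 (2.51). Ncr1 (0.737), Ifng (0.733) and Fasl (0.503) were the lowest and fell under the filter of a mean of 1 TPM, so that 7 of the 10 genes entered the test. Neighboring means in this order differed by less than the range of at least 1 gene of the pair over the 6 libraries.

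**Figure D1:**
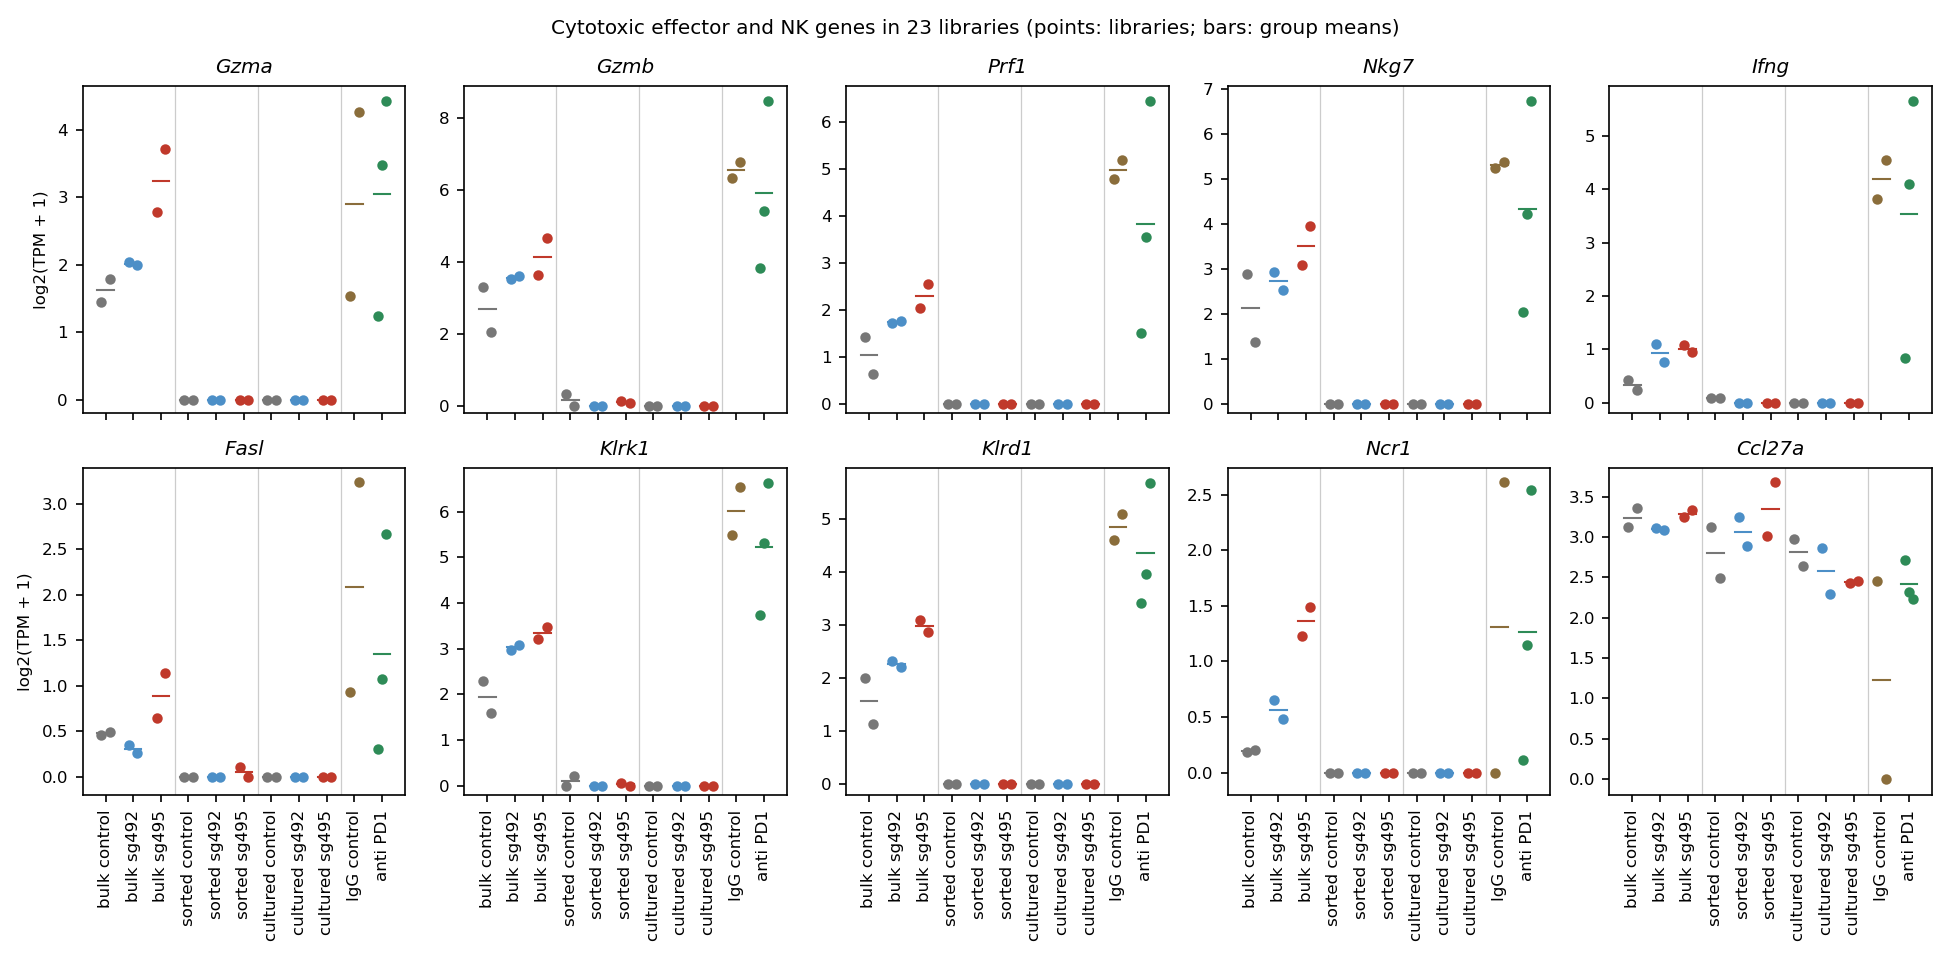
Each panel plots log2(TPM + 1) of 1 gene in 23 libraries, with points for libraries and bars for group means, and sample types are separated by gray lines. In sorted and cultured cells 9 of the 10 genes lie at or near 0 and only Ccl27a keeps a level, while in bulk tumors 9 of the 10 have both sg495 libraries (red) above both controls (gray).

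The comparison of sg495 with control bulk tumors asked whether RNA of cytotoxic cells differed when the grafted melanoma cells had been edited for Nr2f6. In the sg495 tumors, 9 of the 10 genes had both libraries above both controls, with differences of the tested genes between 1.27 and 1.63 on the log2(TPM + 1) scale, Ccl27a excepted. None of the 7 genes tested passed the threshold, an adjusted p under 0.05 with at least a 1.5-fold change, although 6 of the 7 had an unadjusted p below 0.05. Among all 13639 genes tested, 0.0293% were called, 11.1% were higher at an unadjusted p below 0.05, and 31.6% had both sg495 libraries above both controls. The median difference was 1.41 over the 7 genes and 0.06 over all genes.

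Granzyme A (Gzma), a tryptase-like protease, was at 1.74 and 2.46 TPM in control tumors, 3.12 and 2.98 in sg492 tumors and 5.89 and 12.1 in sg495 tumors. The 3 groups did not overlap, and the library sg495 replicate 2 was the highest. The difference between sg495 and control was 1.63 ± 0.32 (SE; limma adjusted p = 0.105). Against sg492 it was 1.23 ± 0.32 (adjusted p = 0.281), the only 1 of the 7 tested with an unadjusted p below 0.05 in that comparison (0.00755).

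Granzyme B (Gzmb), which cleaves caspases, was at 8.96 and 3.20 TPM in control, 10.6 and 11.2 in sg492 and 11.4 and 24.3 in sg495 tumors. Its groups did not overlap, but the controls differed from each other by more than the gap to the sg492 libraries. The sg495 difference was 1.45 ± 0.47 (SE; limma adjusted p = 0.214).

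Perforin (Prf1) was at 1.70 and 0.55 TPM in control, 2.32 and 2.42 in sg492 and 3.13 and 4.91 in sg495 tumors. The order of the groups was that of the granzymes, with control replicate 2 the lowest library. The sg495 difference was 1.27 ± 0.32 (SE; limma adjusted p = 0.141).

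Nkg7, which takes part in the release of granules, was at 6.42 and 1.6 TPM in control, 6.71 and 4.86 in sg492 and 7.56 and 14.5 in sg495 tumors. Control and sg492 overlapped. The sg495 difference was 1.39 ± 0.52 (SE; limma adjusted p = 0.275), the largest error of the 7 genes.

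Of the receptors, Klrk1 was at 3.89 and 2.0 TPM in control, 6.88 and 7.49 in sg492 and 8.26 and 10.2 in sg495 tumors. It had the lowest adjusted p of the set, with a difference of 1.41 ± 0.25 for sg495 (SE; limma adjusted p = 0.0994) and 1.09 ± 0.25 for sg492 (adjusted p = 0.481). Klrd1 was at 3.05 and 1.20 TPM in control, 4.01 and 3.65 in sg492 and 7.55 and 6.33 in sg495 tumors, a sg495 difference of 1.41 ± 0.30 (SE; limma adjusted p = 0.107). Both receptors had separate groups in the order control, sg492, sg495.

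Ncr1 was near the limit of the deposited decimals in control tumors, at 0.14 and 0.15 TPM, against 0.57 and 0.40 in sg492 and 1.35 and 1.81 in sg495 tumors. These 3 groups were separate as well. Without the expression filter its sg495 difference was 1.17 ± 0.14 (SE; limma adjusted p = 0.190), with the smallest unadjusted p of the 10 genes (0.000456).

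Ifng was at 0.34 and 0.18 TPM in control, 1.14 and 0.70 in sg492 and 1.11 and 0.93 in sg495 tumors. Both edited groups lay above control and overlapped each other, and without the filter the sg495 difference was 0.68 ± 0.17 (SE; limma adjusted p = 0.286). Fasl was at 0.38 and 0.41 TPM in control, 0.27 and 0.20 in sg492 and 0.56 and 1.20 in sg495 tumors. It was the only cytotoxic effector with both sg492 libraries below both controls, and its sg495 difference without the filter was 0.41 ± 0.18 (SE; limma adjusted p = 0.520).

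Ccl27a did not have both sg495 libraries above both controls. It was at 7.72 and 9.26 TPM in control, 7.66 and 7.47 in sg492 and 8.49 and 9.08 in sg495 tumors. The sg492 values lay below both controls, and the sg495 values between the controls, with a difference of 0.05 (95% CI -0.27 to 0.37, limma adjusted p = 0.894), and that sign turned with the scaling used.

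With sg492, 0 of the 7 genes were called against control by limma and 1, Klrk1, had an unadjusted p below 0.05 (0.00439), beside 0% and 6.67% of all genes (higher). Both sg492 libraries lay above both controls for 7 of the 10 genes, beside 31.1% of all genes tested. The intervals of the other 6 genes tested included 0, for example -0.27 to 2.02 for Gzmb. The sg495 and sg492 tumors were then compared with each other. Both sg495 libraries lay above both sg492 libraries for 9 of the 10 genes, all but Ifng, beside 21.1% of all genes. Of the 7 tested, 0 were called by limma (0% of all genes) and 1, Gzma, had an unadjusted p below 0.05, beside 4.61% of all genes (higher). Both guides were set against the same control tumors, so their differences from control are not independent of each other.

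**Figure D2:**
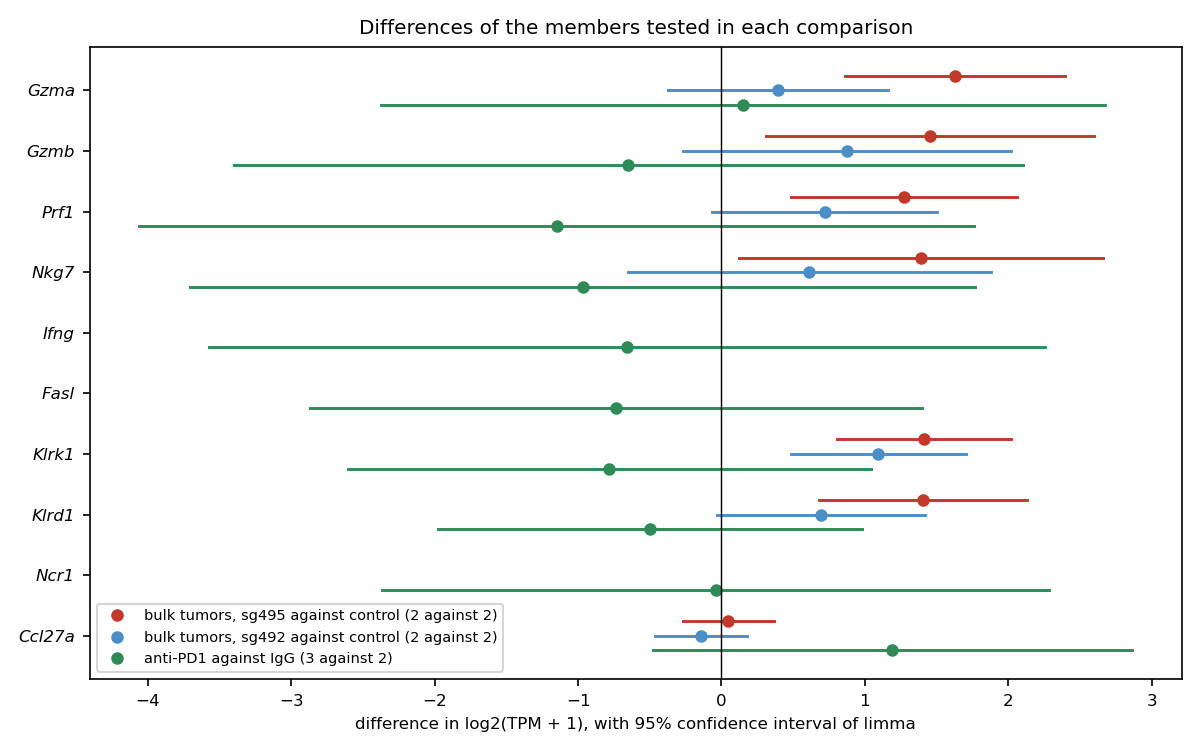
The horizontal axis is the difference in log2(TPM + 1) and each line is a 95% confidence interval of limma, in red for sg495 and blue for sg492 bulk tumors (2 libraries against 2) and in green for anti-PD1 against IgG (3 against 2). In bulk tumors the intervals of Gzma, Gzmb, Prf1, Nkg7, Klrk1 and Klrd1 lie above 0 for sg495, and that of Ccl27a spans it, as all 10 anti-PD1 intervals do.

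With 2 libraries against 2, an exact 2-sided permutation test reaches no p under 0.333, so the p-values rest on the spread that limma shares across genes. Control replicate 1 weighed on the sg495 differences: without it, that of Klrk1 was 1.76 and that of Klrd1 1.85, in place of 1.41 for both. A fit of all 18 libraries called 4 of the 6 genes of the set tested in it, beside 395 of all 13152 genes. The spread in that fit included the sorted and cultured libraries, where these 4 genes were at or near 0.

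Leukocyte RNA moved with these genes, and in bulk tissue more cells of a type and more RNA per cell cannot be told apart. The 6 leukocyte markers summed to between 91.9 and 135 TPM in control, 169 and 193 in sg492 and 223 and 273 in sg495 tumors, and all 6 were higher with sg495 at an unadjusted p below 0.05. Ptprc, which encodes CD45, was at 9.29 and 5.74 TPM in control and 18.2 and 26.2 in sg495 tumors. The 6 macrophage markers (130 to 190 against 283 to 301 TPM) and the 5 fibroblast markers (272 to 312 against 424 to 756 TPM) were higher as well, with 6 and 4 genes at an unadjusted p below 0.05. Other lists did not move in this way. B cell markers summed to between 2.38 and 3.60 TPM in control and 2.01 and 2.95 in sg495 tumors, and endothelial markers to between 39.2 and 47.3 against 48.7 and 49.3 TPM, with 0 of 1 and 0 of 4 genes tested at that p. T cell markers summed to between 15.1 and 27.2 TPM in control and 37.4 and 49.8 in sg495 tumors, with 4 of 9 genes tested at that p, among them Cd2 (1.51) and Trac (1.42). Cd3e itself overlapped, at 2.19 and 0.55 against 1.79 and 3.35 TPM. Melanocyte markers summed to between 15077 and 16110 TPM over the bulk tumors, and 0 of 7 passed that p in either direction. None of these marker genes was called by limma, and their part in the differences above was not tested.

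TPM of the same genes was also set against Ptprc and against the summed CD3 chains (Cd3e, Cd3d and Cd3g). This choice was made after the values had been seen. The CD3 chains summed to 8.45 and 4.21 TPM in control, 5.73 and 6.31 in sg492 and 8.31 and 13.2 in sg495 tumors. Their sum overlapped between control and sg495, unlike the sum of all T cell markers given above, and ratios to the latter were not taken. Relative to Ptprc, only Ncr1 had both sg495 libraries above both controls (0.0743 and 0.0691 against 0.0151 and 0.0261), beside 0.315% of all genes, 8 of the 10 genes overlapped and Ccl27a lay below. Gzmb, for example, was at 0.964 and 0.557 of Ptprc in control and 0.628 and 0.928 in sg495 tumors. Relative to the summed CD3 chains, 8 of the 10 genes lay above control with sg495, beside 2.14% of all genes, and 7 of the 10 with sg492, beside 7.41%. Prf1 was at 0.201 and 0.131 of the CD3 chains in control, 0.405 and 0.384 in sg492 and 0.377 and 0.371 in sg495 tumors. With sg492, Ifng and Klrk1 lay above control relative to Ptprc, Fasl and Ccl27a lay below, and the other 6 genes overlapped. Shares of all genes are not given for these sg492 positions, nor for genes below control with either guide. Ptprc itself was at 9.29 and 5.74 TPM in control and 13.8 and 16.0 in sg492 tumors, and higher with sg495. A gene with level TPM, such as Ccl27a, therefore falls below control in this ratio. Relative to the CD3 chains, Fasl and Ccl27a overlapped with control for both guides and Gzma for sg492.

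**Figure D3:**
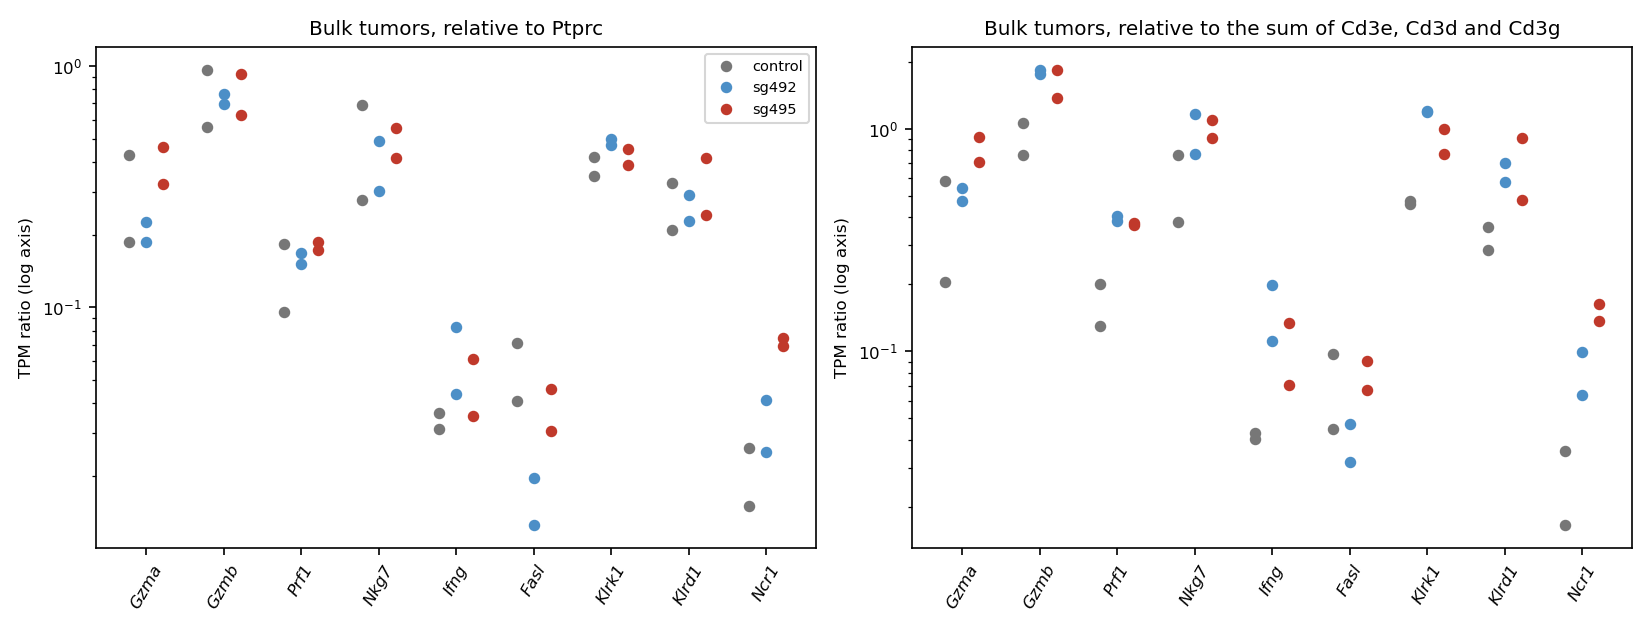
The vertical log axes give TPM of 9 genes divided by that of Ptprc (left) or by the sum of Cd3e, Cd3d and Cd3g (right) in the 6 bulk tumor libraries, with a point for each library. On the left only Ncr1 has both sg495 points above both control points, and on the right 8 of the 9 genes do, with Fasl the exception.

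The genes around these effectors were followed in lists. Of 8 other granzymes only Gzmc reached the filter, at 4.06 and 5.40 TPM in control and 8.26 and 6.39 in sg495 tumors (difference 0.54, limma adjusted p = 0.251), and Gzmn was at 0 throughout. Of the 10 genes for granule proteins and their release, 4 were higher and 2 lower (Lamp1 and Stxbp2) at an unadjusted p below 0.05, led by Ctsc (0.82, adjusted p = 0.0994), the protease that activates granzymes. Serglycin (Srgn), which packs the granules, differed by 0.47 (adjusted p = 0.354). The granzyme B inhibitor Serpinb9 was at 6.56 and 4.21 TPM in control and 11.9 and 9.60 in sg495 tumors (0.90, adjusted p = 0.132), and 2 of 3 inhibitors tested were higher at that p.

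Of 24 NK receptors and adaptors, 9 were tested and 6 were higher at an unadjusted p below 0.05, with a median difference of 0.94. They were led by the Fc receptor Fcgr3 (0.94, limma adjusted p = 0.0865), the signaling adaptor Tyrobp (0.80, adjusted p = 0.0994) and Klrb1b (1.33, adjusted p = 0.105). Fcgr3 and Tyrobp are also used by macrophages. Receptors of narrower use stayed under the filter: Klra8 was at 0.21 and 0.18 TPM in control and 1.72 and 1.92 in sg495 tumors, and Klrb1c at 0.41 and 0.41 against 1.73 and 1.4. The 6 markers of NK and innate lymphoid cells summed to 2.19 and 1.85 TPM in control, 4.03 and 3.85 in sg492 and 6.38 and 8.17 in sg495 tumors. The groups of this sum were separate in the same order as Klrk1, Klrd1 and Ncr1.

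Ligands of these receptors, which target cells can carry, were less uniform in bulk tumors. H2-T23, which encodes the CD94 ligand Qa-1, was at 40.9 and 17.9 TPM in control, 72.7 and 58.0 in sg492 and 89.96 and 75.5 in sg495 bulk tumors (sg495 difference 1.57, limma adjusted p = 0.117). The NKG2D ligands Ulbp1 (0.40, adjusted p = 0.440) and Raet1d (0.14, adjusted p = 0.581) had smaller differences. H2-T23 was also singled out after its values had been seen in the isolated cells. In sorted tumor cells it was at 5.12 and 6.29 TPM in control against 34.1 and 34.99 in sg495 cells (difference 2.41 on the log2 scale, limma adjusted p = 0.0663). It fell with sg495 in culture, from 2.97 and 2.61 TPM to 0.75 and 0.55 (-1.20, adjusted p = 0.0170). The sg495 effect on H2-T23 differed between bulk tumors and cultured cells (difference of the log2 differences 2.77, adjusted p = 0.0296). Serpinb9 was at 1.52 and 1.86 TPM in control and 3.86 and 5.84 in sg495 sorted tumor cells (1.10, adjusted p = 0.132). Its sg492 difference there was 0.02 (limma adjusted p = 0.996).

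Around Ifng, its inducer Il18 fell with sg495 in cultured cells (-0.84, limma adjusted p = 0.0265). In sg495 bulk tumors, 4 of 8 tested genes for its production and receptor were higher at an unadjusted p below 0.05, with a median of 0.30. Ifngr1, a chain of the receptor, was at 21.5 and 23.6 TPM in control and 30.4 and 30.2 in sg495 tumors (0.41, limma adjusted p = 0.113). The transcription factor Tbx21 stayed under the filter, at 0.37 and 0.14 against 0.95 and 1.62 TPM. Of the death receptor genes, Tnf had a difference of 0.95 (adjusted p = 0.163), while that of Casp8 was negative (-0.20, adjusted p = 0.257). The CCL27 receptor gene Ccr10 was at 1.15 and 1.36 TPM in control and 1.26 and 2.36 in sg495 tumors (0.29, adjusted p = 0.653).

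**Figure D4:**
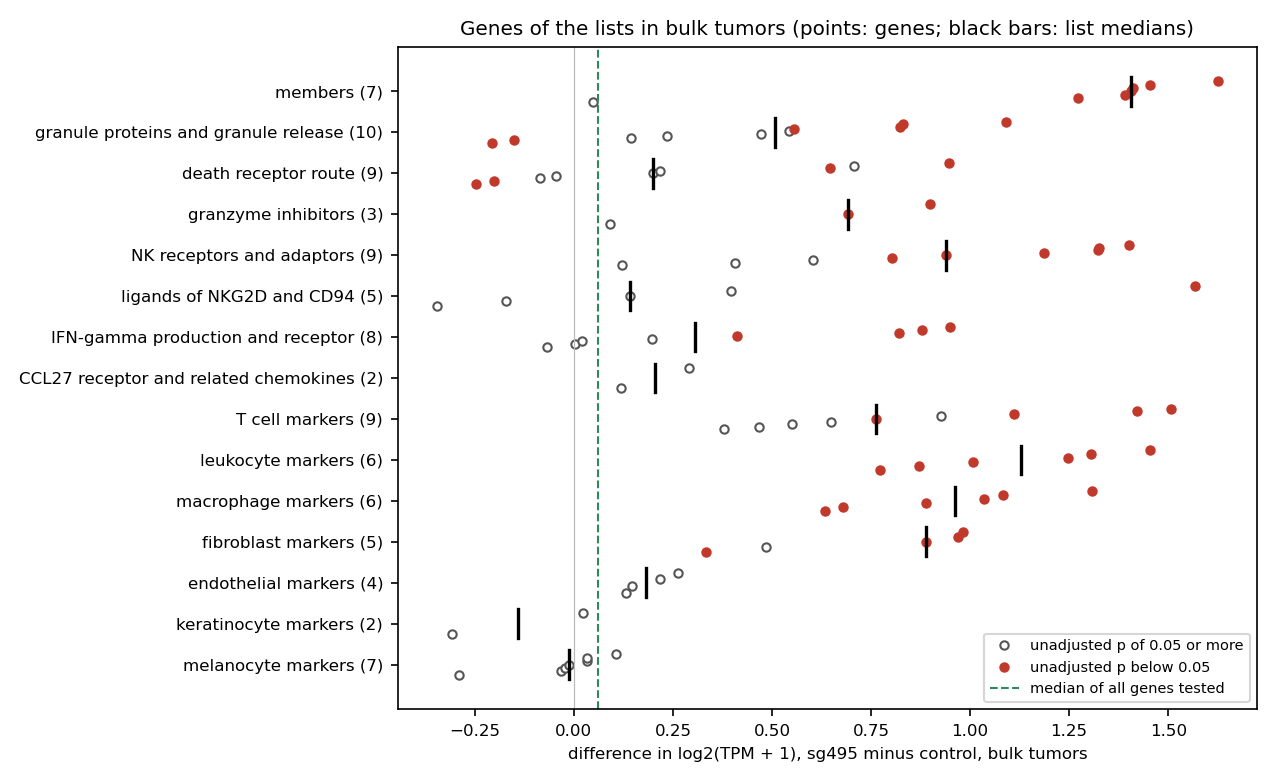
The horizontal axis is the difference in log2(TPM + 1) between sg495 and control bulk tumors, each point is a gene tested in a list (number in brackets), and black bars are list medians. Filled red points have an unadjusted p below 0.05, and 6 of the 7 tested cytotoxic and NK genes lie between 1.27 and 1.63, beside a median of 0.06 over all genes (dashed line).

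Promoters are shown for genes whose values were separate in the order control, sg492, sg495 (Gzma, Gzmb, Prf1, Klrk1, Ncr1) and for Ccl27a, which was not. RefSeq gives promoters on GRCm38.p6, 250 bases before to 50 after a start site, for 9 of the 10 genes, all but Klrd1, and the outermost start was used for the 2 genes with several. Capitals mark the letters TGTGGT on either strand, the core bound by RUNX factors, which are known regulators of cytotoxic lymphocytes.
Gzma, chr13:113100932-113101231, minus strand: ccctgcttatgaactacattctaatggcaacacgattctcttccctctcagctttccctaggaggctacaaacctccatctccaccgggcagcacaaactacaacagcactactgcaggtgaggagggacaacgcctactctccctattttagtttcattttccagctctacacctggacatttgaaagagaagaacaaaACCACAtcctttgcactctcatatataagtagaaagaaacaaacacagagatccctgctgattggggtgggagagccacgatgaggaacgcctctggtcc
Gzmb, chr14:56262285-56262584, minus strand: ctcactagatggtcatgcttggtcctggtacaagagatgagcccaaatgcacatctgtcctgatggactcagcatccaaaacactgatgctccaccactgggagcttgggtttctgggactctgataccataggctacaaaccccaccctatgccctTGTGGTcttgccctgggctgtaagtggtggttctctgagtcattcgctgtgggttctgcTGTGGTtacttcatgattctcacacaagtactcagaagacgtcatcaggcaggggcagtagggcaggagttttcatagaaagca
Prf1, chr10:61297586-61297885, plus strand: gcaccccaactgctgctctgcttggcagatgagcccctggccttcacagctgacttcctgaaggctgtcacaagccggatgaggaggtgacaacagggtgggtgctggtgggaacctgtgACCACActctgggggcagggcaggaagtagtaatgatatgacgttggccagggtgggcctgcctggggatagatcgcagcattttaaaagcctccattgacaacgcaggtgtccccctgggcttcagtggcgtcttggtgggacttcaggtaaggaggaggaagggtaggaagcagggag
Klrk1, chr6:129623815-129624114, minus strand: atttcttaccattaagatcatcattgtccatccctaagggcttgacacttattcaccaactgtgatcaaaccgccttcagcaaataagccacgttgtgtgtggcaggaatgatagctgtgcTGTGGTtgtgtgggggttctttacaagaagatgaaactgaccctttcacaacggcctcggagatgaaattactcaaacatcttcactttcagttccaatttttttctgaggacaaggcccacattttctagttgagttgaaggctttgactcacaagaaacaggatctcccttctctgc
Ncr1, chr7:4337465-4337764, plus strand: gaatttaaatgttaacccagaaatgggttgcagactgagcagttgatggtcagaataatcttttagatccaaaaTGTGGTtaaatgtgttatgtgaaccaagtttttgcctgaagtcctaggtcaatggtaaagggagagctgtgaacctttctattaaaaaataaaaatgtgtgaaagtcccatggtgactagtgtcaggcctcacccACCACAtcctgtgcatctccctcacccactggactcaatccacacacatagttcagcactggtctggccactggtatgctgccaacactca
Ccl27a, chr4:41774127-41774426, minus strand: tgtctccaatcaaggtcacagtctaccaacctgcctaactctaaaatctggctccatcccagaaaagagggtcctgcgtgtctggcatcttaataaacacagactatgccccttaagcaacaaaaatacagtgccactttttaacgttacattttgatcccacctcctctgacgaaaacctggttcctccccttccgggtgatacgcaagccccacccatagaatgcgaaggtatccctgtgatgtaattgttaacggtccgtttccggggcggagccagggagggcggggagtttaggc

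The letters TGTGGT were found in 6 of the 9 promoters (Gzma, Gzmb, Prf1, Nkg7, Klrk1 and Ncr1), beside 16.8% of 32851 start sites in the table. Gzmb and Ncr1 held them at 2 places each, and Ifng, Fasl and Ccl27a at none in this window. The T-box letters GTGTGA were in 3 of the 9 (Gzmb, Nkg7 and Ncr1; 14.5% of start sites), the AP-1 letters TGANTCA in 2 (Gzmb and Klrk1; 7.81%) and the GAS letters TTCNNNGAA, read by STAT factors, in 3 (Gzmb, Nkg7 and Ifng; 8.3%). The letters AGGTCA, bound by nuclear receptors, the protein family of NR2F6, were in 3 (Ifng, Ncr1 and Ccl27a; 16.3%), and TATAAA in Ifng alone (13.6%). Both strands were searched for all 6 motifs, the matches overlapped each other in none of the printed promoters, and a match describes letters, not a bound site.

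Sorted and cultured cells were used to see which of these genes the melanoma cells carry themselves. Of the 9 genes other than Ccl27a, 0 of 54 values were above 0 in cultured cells and 8 of 54 in sorted tumor cells, in 4 genes, with a highest value of 0.26 TPM (Gzmb, control replicate 1). Gzma, Prf1, Nkg7, Klrd1 and Ncr1 were listed at 0 in all 12 of these libraries. Of 6 genes tested, 5 were called lower in sorted tumor cells than in bulk tumors, beside 9.26% of all genes, and all 6 in cultured cells, beside 15.8%. Gzma, Gzmb, Nkg7, Klrk1 and Klrd1 passed the filter only through the bulk tumors, which fixed that direction, so these counts are a description. Klrk1, for example, ran from 2.0 to 10.2 TPM in bulk tumors and from 0 to 0.16 in sorted tumor cells. Leukocyte markers summed to between 1.38 and 3.49 TPM after sorting and 0.95 and 1.81 in culture, with Ptprc at 0 in every cultured library.

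Ccl27a was the exception, with RNA in every sorted and cultured library. After sorting it was at 7.68 and 4.62 TPM in control, 8.47 and 6.39 in sg492 and 7.09 and 11.8 in sg495 cells, and cultured cells 6.89 and 5.24, 6.26 and 3.90, and 4.37 and 4.47 TPM. Its level in sorted cells did not pass the test against bulk tumors (-0.14, 95% CI -0.46 to 0.18, limma adjusted p = 0.464). In cultured cells it fell at the edge of the fold threshold (-0.60, limma adjusted p = 0.00361), a call lost under quantile normalization (-0.20, adjusted p = 0.240) and in the control groups alone (-0.43, adjusted p = 0.211). Keratinocyte markers, which could accompany this chemokine, were at 0 in all sorted libraries for 4 of 4 genes. They summed to between 0 and 0.06 TPM in cultured cells and between 0.03 and 8.4 in bulk tumors. The source of Ccl27a RNA was not tested. Neither guide gave a call for Ccl27a in sorted or cultured cells. With sg495 the difference was 0.54 (limma adjusted p = 0.457) in sorted and -0.37 (adjusted p = 0.315) in cultured cells, and with sg492 0.26 (adjusted p = 0.884) and -0.23 (adjusted p = 0.724). Of all genes, 0.899% and 2.77% were called with sg495 in sorted and cultured cells, and 0.0388% and 0.05% with sg492.

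The sg495 effect in bulk tumors was tested against that in the isolated cells as an interaction across 18 libraries. Against cultured cells, Gzma (1.63, limma adjusted p = 0.0389) and Klrk1 (1.41, adjusted p = 0.0383) were called, beside 1.76% of all genes, and Klrd1 just missed the threshold (1.41, adjusted p = 0.0536). Against sorted tumor cells 0 of 6 were called, beside 0.122% of all genes, with Klrk1 at 1.48 (adjusted p = 0.0934) and Gzma at 1.63 (adjusted p = 0.0992). In all cultured libraries both called genes stood at 0, and they entered the fit through the bulk tumors, so this contrast restates their bulk difference against a spread that includes libraries at 0, and it is no separate evidence of a difference between sample types. The test within bulk tumors called neither (adjusted p = 0.105 for Gzma and 0.0994 for Klrk1). The calls rested on single libraries and settings: Gzma and Klrk1 both lost theirs with some single libraries left out and with a pseudocount of 0.1. Over all alternatives the difference ran from 1.46 to 2.09 for Gzma and from 1.06 to 1.76 for Klrk1.

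The 5 antibody libraries held far more leukocyte RNA, with summed leukocyte markers between 1350 and 3038 TPM and melanocyte markers between 1663 and 5015, so their levels stand apart from those of the bulk tumors. Anti-PD1 blocks the receptor PD-1 on T cells, and IgG is its control. All 10 genes were tested, and 0 were called by limma (0% of all genes). An unadjusted p below 0.05 was reached by 0, beside 2.97% of all genes higher at that p. All 10 overlapped between the groups, and 9.57% of all genes had each anti-PD1 library above each IgG library. Shares of genes lower with anti-PD1 are not given. Gzmb was the highest of the set in all 5 libraries.

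Gzmb was at 80.2 and 108 TPM with IgG and at 13.3, 41.8 and 354 with anti-PD1. The anti-PD1 libraries thus held both the lowest and the highest value, and the difference was -0.65 (95% CI -3.40 to 2.10, limma adjusted p = 0.845). Prf1 had the same order, with 26.5 and 35.4 TPM with IgG and 1.83, 10.8 and 86.2 with anti-PD1 (-1.15, 95% CI -4.06 to 1.76, adjusted p = 0.735). Nkg7 was at 36.9 and 40.5 TPM with IgG and at 3.17, 17.7 and 106 with anti-PD1. Ifng was at 13.1 and 22.6 TPM with IgG and at 0.78, 16.2 and 49.5 with anti-PD1 (-0.66, adjusted p = 0.851). Anti-PD1 replicate 1 was the lowest and replicate 3 the highest of the 5 libraries in each of these 4 genes.

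The receptors had a narrower spread. Klrk1 was at 44.0 and 91.3 TPM with IgG and at 12.4, 38.9 and 97.9 with anti-PD1 (-0.78, 95% CI -2.61 to 1.04, limma adjusted p = 0.712). Klrd1 was at 23.3 and 33.6 TPM with IgG and at 9.74, 14.6 and 50.8 with anti-PD1. The same anti-PD1 libraries were again the extremes of both.

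Gzma, Fasl and Ncr1 split the IgG pair as well. Gzma was at 1.91 and 18.2 TPM with IgG and at 1.37, 10.2 and 20.6 with anti-PD1 (0.15, limma adjusted p = 0.966). Fasl was at 0.91 and 8.42 TPM with IgG and at 0.24, 1.10 and 5.35 with anti-PD1. Ncr1 was listed at 0 in IgG replicate 1 and at 5.11 TPM in replicate 2, against 0.08, 1.21 and 4.81 with anti-PD1. IgG replicate 1 was the lower of the IgG pair in these 3 genes, as in every other gene of the set except Ccl27a.

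Ccl27a was at 4.48 TPM and 0 with IgG and at 5.56, 3.99 and 3.68 with anti-PD1 (1.19, 95% CI -0.48 to 2.87, limma adjusted p = 0.610). The sign of this difference rested on IgG replicate 2, without which it was -0.034. The T cell markers moved with the effectors, summing to 179 and 281 TPM with IgG and to 37.0, 61.7 and 368 with anti-PD1, and the CD3 chains summed to 66.7 and 101 and to 2.69, 18.2 and 122 TPM. Relative to the CD3 chains, Gzmb, Prf1, Nkg7, Ifng and Klrd1 lay above both IgG libraries in all 3 anti-PD1 libraries (5 of 10 genes, beside 2.8% of all genes), and relative to Ptprc all 10 overlapped. Prf1 was at 0.398 and 0.351 of the CD3 chains with IgG and at 0.680, 0.592 and 0.707 with anti-PD1. In anti-PD1 replicate 1 the CD3 chains made up only 2.69 of the 37.0 TPM of T cell markers. The ratios thus depend on the T cell genes chosen, and ratios to the T cell marker sum were not taken. The share of T cell RNA in these values was not tested, and with 3 libraries against 2 an exact 2-sided permutation test reaches no p under 0.1.

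**Figure D5:**
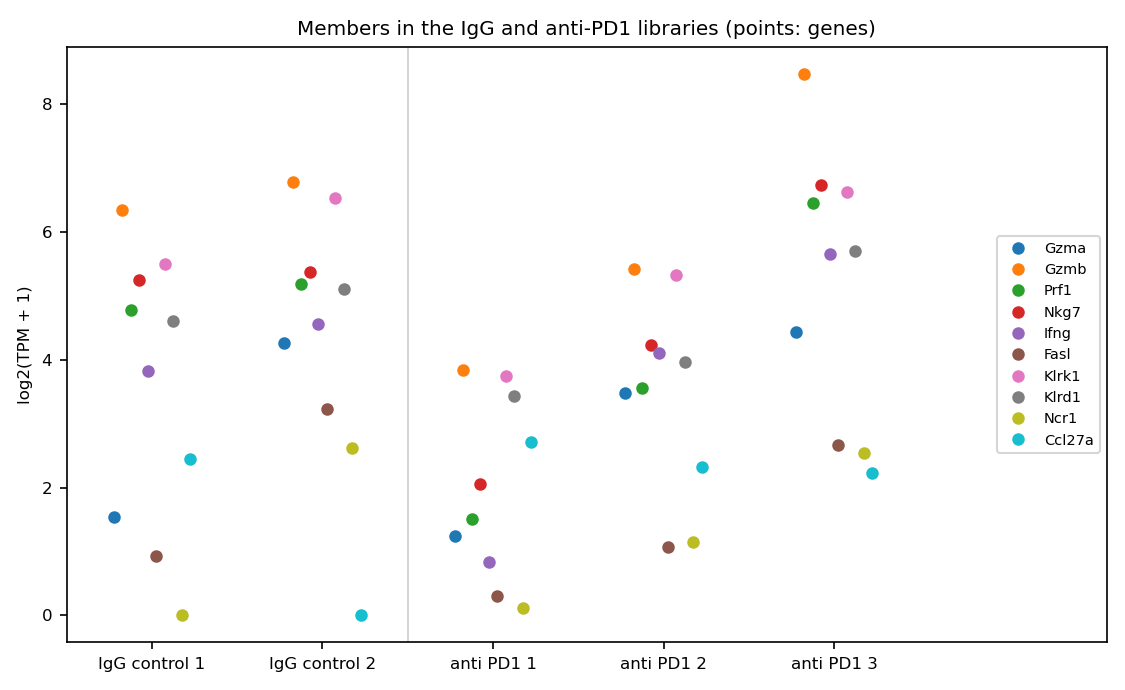
The vertical axis is log2(TPM + 1), and each of the 10 genes has a point in each of the 2 IgG and 3 anti-PD1 libraries. Anti-PD1 replicates 1 and 3 hold the lowest and the highest values of Gzmb, Prf1, Nkg7, Ifng, Klrk1 and Klrd1, with the IgG libraries between them.

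Over the 11 bulk and antibody libraries, the 36 pairs among the 9 genes other than Ccl27a had a Pearson r of log2(TPM + 1) between 0.63 and 0.99 with a median of 0.84, and the 9 pairs with Ccl27a had one between -0.84 and -0.54. These 2 sets of libraries differ in leukocyte RNA, which such values share. Within the 6 bulk tumors the median over the 36 pairs was 0.81, and within the 5 antibody libraries 0.88. Gzmb and Prf1 followed the mean profile of the set most closely (r = 0.97 each), and Gzma (0.83), Ncr1 (0.83) and Ccl27a (-0.68) least. The comparison covered 13893 genes, the set included. Those outside the set most like the mean profile included Ubash3a (r = 0.981), Sept1 (0.973), a gene with the identifier ENSMUSG00000107928 (0.970) and Ms4a4b (0.968). Ubash3a encodes a signaling regulator of T cells.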

How the data were processed

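The authors trimmed reads with cutadapt (2.3), aligned them to mm10 with STAR (2.7.0d), and estimated gene levels from Ensembl models with RSEM (1.3.1). They deposited 1 table of TPM, to 2 decimals, for 47643 genes. TPM keep no read depth, so no counting interval or smallest detectable level is given, and the count-based test of the study's methods was not repeated. The deposited TPM were not rescaled and entered as log2(TPM + 1). Genes averaging 1 TPM or more in the libraries fitted were tested with limma 3.58.1 (R 4.3.3; lmFit, eBayes with a trend). A sample type's 3 groups shared a fit, contrasts between sample types and interactions used all 18 libraries, and IgG and anti-PD1 were fitted apart. P-values are 2-sided, adjusted by Benjamini-Hochberg over all genes tested, and calls needed an adjusted p under 0.05 with at least a 1.5-fold change. They measure the spread between libraries, which may be technical. The procedure was tested on simulated data. The members and lists were chosen with earlier results of these data known. All 10 members are named, with up to 3 genes of smallest p per list and the 5 genes most like the members, and others only as chosen after their values were seen. Some genes that these rules name are not reported here. Positions come from GENCODE M21, promoters from RefSeq (GRCm38.p6), both searched with Python 3.11.15 and pandas 2.3.3. Of the lists, H60a, Raet1a, Raet1b and Raet1c had no row under these symbols and were not analysed here. Alternatives were another pseudocount (0.1), no filter or a mean of 5 TPM, other scalings, a replicate block, other fits and each library left out.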

Additional observations from a re-analysis of the deposited data

Results flagged for a closer look

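The interaction of sg495 with sample type, bulk tumors against cultured cells, passed the threshold for 2 genes. For Gzma the difference of the effects was 1.63 on the log2(TPM + 1) scale (limma adjusted p = 0.0389), with both sg495 libraries above both controls in bulk tumors and all libraries listed at 0 in cultured cells. For Klrk1 it was 1.41 (limma adjusted p = 0.0383), with the same pattern. Both values equal the bulk difference alone, and both genes passed the filter only through the bulk tumors, where the test called neither (adjusted p = 0.105 and 0.0994). They are therefore no separate evidence that the effect depends on the sample type. No group of 4 to 10 libraries was available for a check of single outlying libraries.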

How the results depend on the processing

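Of 900 alternatives for single genes, 831 kept direction and side of the threshold, 22 lost a call, 26 gained one and 21 turned sign, and the cause was not tested. In 5 of the 12 comparisons the count of called genes of the set did not move by over 1.5 times under any alternative. For sg495 against control in bulk tumors (0 called) a fit of all 18 libraries called 4, beside 395 of all 13152 genes. Calls of the set also moved with a single library left out. For sg495 against sg492 the fit of all 18 libraries called 1 in place of 0, beside 58 of all 13152 genes. For sorted tumor cells against bulk tumors (5) there were 8 without a filter, beside 2570 of all 27657 genes. At a mean of 5 TPM, which leaves only Ccl27a to test, there were 0, beside 983 of 10272. For cultured cells (6) there was 1 at that mean, beside 1478 of 10272. For the interaction with sorted tumor cells (0) there were 4 without a filter, beside 130 of all 27657 genes. Without a trend there was 1, beside 53 of 13152, and calls also moved with a library left out. For the interaction with cultured cells (2) there were 0 with a pseudocount of 0.1, beside 196 of all 13152 genes. Without a filter there were 5, beside 262 of 27657, and at a mean of 5 TPM 0, beside 202 of 10272. Calls also moved there with a library left out.

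In the 7 guide comparisons, deviations of same-numbered libraries correlated at between -0.126 and 0.051, and the numbers were not taken to pair the libraries. IgG and anti-PD1 share only 2 numbers, too few for that check, and their differences between replicates 1 and 2 correlated at 0.0851. With the replicate block, 0 genes of the set were called for each guide in each sample type. In the interaction with cultured cells it called 1, beside 168 of all 13152 genes. For anti-PD1 against IgG it called 6, beside 514 of all 13418 genes, on 1 residual degree of freedom. Crossing the numbers of the sg492 bulk tumors, chosen after seeing the data, gave 0.

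Signs turned in these cases. Ccl27a with sg495 in bulk tumors was -0.023 after median-of-ratios scaling, -0.083 after quantile normalization and -0.069 to 0.17 with a library left out. In sorted against bulk it was 0.067 after quantile normalization. With a library left out, sg492 gave Nkg7 in bulk tumors -0.14 to 1.37, and Ccl27a -0.053 to 0.57 in sorted and -0.52 to 0.049 in cultured cells. For anti-PD1 against IgG, Gzma was -0.54 with the block and Ncr1 0.54 with a pseudocount of 0.1. With a library left out the ranges were Gzma -1.21 to 1.51, Gzmb -1.93 to 0.39, Prf1 -2.46 to 0.017, Nkg7 -2.17 to 0.17, Ifng -1.72 to 0.69, Fasl -1.89 to 0.42, Ncr1 -1.35 to 1.26 and Ccl27a -0.034 to 2.42. The turns of Gzmb, Prf1, Nkg7 and Ifng came without anti-PD1 replicate 1, and those of Fasl and Ccl27a without IgG replicate 2.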
